A study of Homo sapiens with 8 samples.

Results

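The genes described here are 10 members of the hypoxia inducible factor (HIF) pathway: HIF1A, VEGFA, ADM, CA9, EGLN1, EGLN3, NDRG1, BNIP3, LOX and P4HA1. They were chosen by name, and all 10 were found among the 20897 genes of the expression tables. RNA-seq had been run on polyA RNA of HepG2, an established human liver carcinoma line. After a day in 10% serum the cells were kept in 1% serum for 8 h and treated for 18 h with genistein (n = 3), with BMP6 at 50 ng/ml (n = 2) or with DMSO alone (n = 3), and every well, treated or not, held 1% DMSO. Genistein, an isoflavone of soy, inhibits tyrosine kinases, and BMP6 is the bone morphogenetic protein that signals iron stores to hepatocytes. The labels give the genistein dose as 10 micromolar in one field and in millimolar in another, so the dose is uncertain. The study asked about expression of the iron hormone hepcidin. No sample was labelled as hypoxic.

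HIF is a transcription factor made of an oxygen-labile alpha subunit, such as the HIF1A product, and the stable partner ARNT. With oxygen and iron at hand, prolyl hydroxylases such as those encoded by EGLN1 and EGLN3 mark the alpha subunit, the VHL protein binds the mark and the subunit is degraded. When oxygen or iron is short the subunit persists, and target genes for blood vessel growth, glycolysis, pH control, mitochondrial turnover and collagen processing are transcribed. Regulation of HIF1A is largely at the protein level, which RNA-seq does not measure. In liver cells the pathway meets iron metabolism, because the hydroxylases need iron.

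Values are FPKM (fragment counts scaled to transcript length and library size) as the authors deposited them, which can be set side by side between genes because they are per transcript length. Read depth is unknown. Differences were tested with limma on log2(FPKM + 1) over 12661 genes, and a gene was called at a Benjamini-Hochberg adjusted p under 0.05. A change is a difference of group means on that log2 scale, and for weakly expressed genes it understates the fold. The series design speaks of biological replicates, but no label describes separate cultures, so the p-values measure the spread between these libraries only.

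Some libraries stood apart. DMSO 1 and Genistein 2 had 1679 and 2167 tested genes listed at 0, against 356 to 962 in the other 6 libraries. A value listed at 0 may be a failed estimate, although the zeros of CA9, EGLN3 and LOX carry the status OK. These genes may be affected, and their values are given by library. LOX was also listed at 0 in DMSO 2 and Genistein 1. The BMP6 pair correlated at 0.847 over the tested genes, below the 0.884 to 0.963 within DMSO and the 0.913 to 0.96 within genistein. BMP6 1 was closest to Genistein 3 (0.889) and BMP6 2 to DMSO 3 (0.912), so neither BMP6 library was closest to the other. BMP6 1 had the lowest FPKM total of the 8 libraries (1704599) and BMP6 2 the highest (3105197). Their factors in median-of-ratios scaling were 0.728 and 1.19. Gaps within the BMP6 pair are given in deposited FPKM and depend on the scaling. The 11 hepatocyte markers summed to 135617 to 217741 FPKM with genistein, 206482 to 226774 with BMP6 and 187347 to 235125 with DMSO. Of 8 fibroblast and stellate cell markers 7 were listed at 0 in all 8 libraries, and the remaining one, PDGFRB, had 0 to 2.92 FPKM with genistein, 14.3 to 19.5 with BMP6 and 1.88 to 4.91 with DMSO. The 7 endothelial markers in the files summed to at most 1.71 FPKM in any library. The 6 cholangiocyte markers summed to 936 to 1496 FPKM with genistein, 2867 to 3644 with BMP6 and 1671 to 2343 with DMSO, without overlap, and CFTR was listed at 0 throughout. The 7 blood and immune markers summed to 1243 to 1955 FPKM with genistein, 1563 to 2406 with BMP6 and 3259 to 4865 with DMSO, while PTPRC, CD3E and MS4A1 were listed at 0 throughout. The part of these marker shifts in the results was not tested. In bulk RNA, fewer cells expressing a gene and less RNA of it per cell cannot be told apart.

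With genistein, 1 of the 10 genes was called against DMSO. VEGFA, the gene of the main growth factor for blood vessels, rose 2.20-fold, and no member was called lower. Over all tested genes 12.1% were called in this comparison, 6.11% higher and 5.96% lower, so 1 in 10 is near the background. VEGFA alone was higher in every genistein library than in any DMSO library, where 23.3% of all tested genes were so separated. ADM and NDRG1 were lower in every genistein library, where the share was 20.6% over all tested genes, so 3 of 10 were separated in either direction, against 43.9%. The other 9 genes had changes between -1.10 and 0.53. The median change of the 10 genes was -0.37, beside 0.05 over all tested genes, but it was 0.044 without DMSO 3 (5 of 10 above 0) and -0.60 without DMSO 1.

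With BMP6, none of the 10 genes was called against DMSO by limma, where 0.837% of all tested genes were called, 0.34% higher and 0.498% lower. At an unadjusted p under 0.05 there were 4 members, beside 2388 of the 12661 genes. CA9, EGLN3, LOX, NDRG1 and P4HA1 were higher in both BMP6 libraries than in any DMSO library, 5 of 10 genes, while 16.1% of all tested genes were separated in this direction. No member lay below all DMSO libraries, against 17.3% of all tested genes, and in either direction 33.3% of all tested genes were separated. The median change of the 10 genes was 1.06, beside -0.03 over all tested genes, and it was 0.55 without BMP6 1 and 0.47 without DMSO 1.

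Genistein was also compared directly with BMP6, and none of the 10 genes was called by limma, where 1.39% of all tested genes were called, 0.64% higher and 0.75% lower. At an unadjusted p under 0.05 there were 6 members, beside 1855 of all tested genes. CA9, EGLN3, LOX, NDRG1 and P4HA1, 5 of 10 genes, were lower in all genistein libraries than in either BMP6 library, while 12.6% of all tested genes were separated that way. VEGFA and EGLN1 were separated the other way, where the share over all tested genes was 16.3%, so 7 of 10 were separated in either direction, against 28.9%. The 3 comparisons share libraries, so they are not independent of each other.

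**Figure D1:**
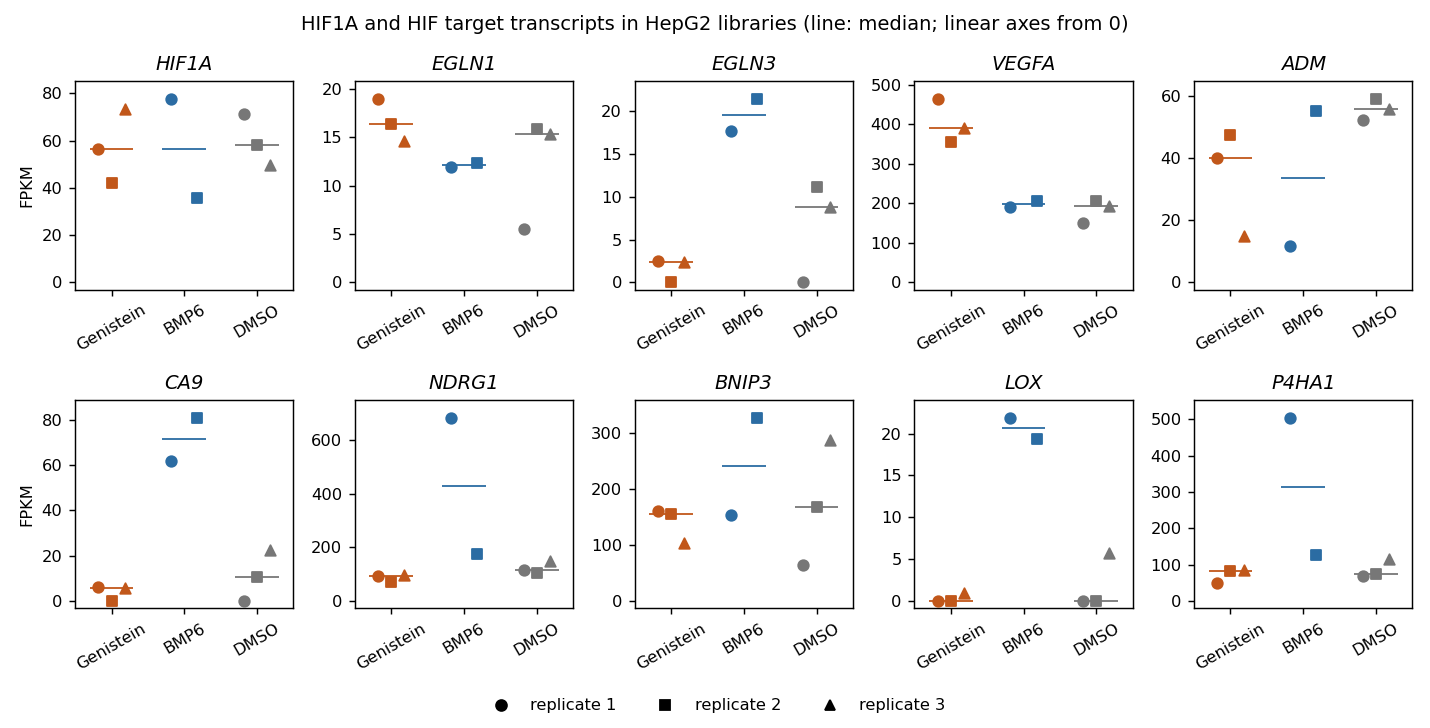
FPKM of each of the 10 genes in every library, with 1 panel per gene and a linear axis from 0. Points are single libraries of genistein (3), BMP6 (2) and DMSO (3), their shapes give the replicate number, and lines mark group medians. VEGFA is highest in the 3 genistein libraries, and CA9, EGLN3, LOX, NDRG1 and P4HA1 are highest in the 2 BMP6 libraries.

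**Figure D2:**
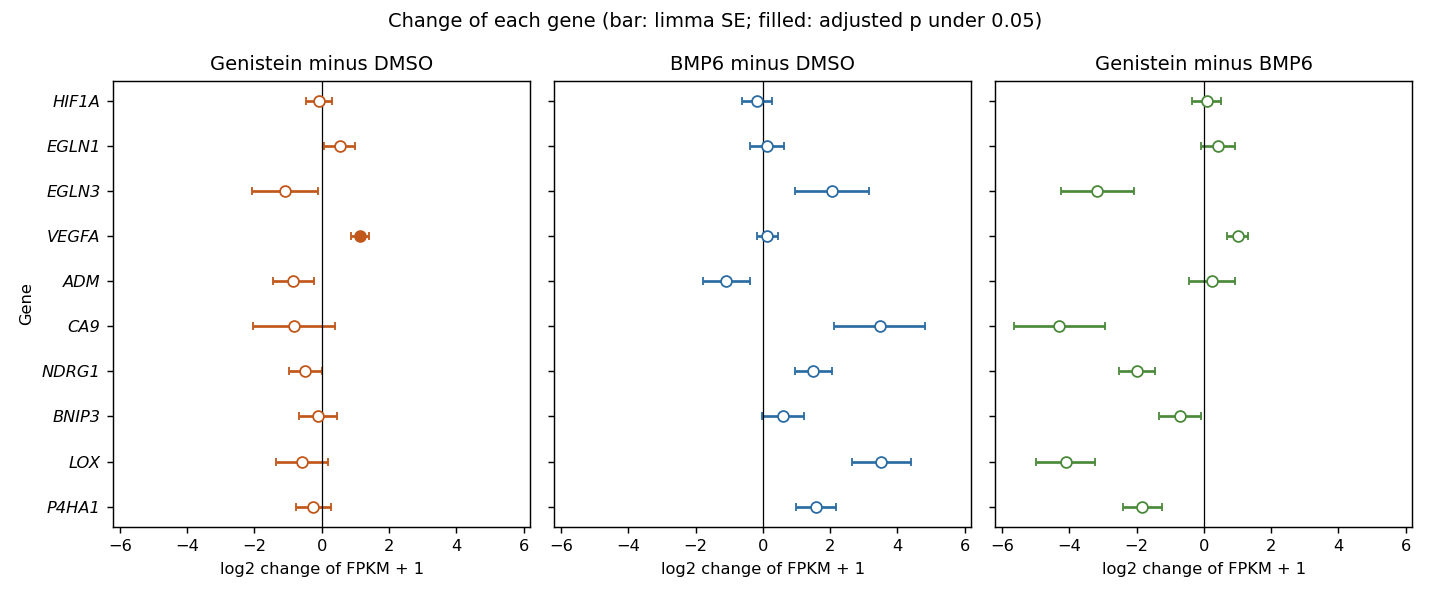
Change of each gene on the log2(FPKM + 1) scale for genistein minus DMSO, BMP6 minus DMSO and genistein minus BMP6, with the SE of limma as bars. Filled symbols passed an adjusted p of 0.05, which VEGFA did for genistein minus DMSO at 1.14.

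The factor itself and the oxygen sensors come first. HIF1A (ENSG00000100644; hg18 chromosome 14, 61231992 to 61284729) encodes the oxygen-regulated alpha subunit. Its transcript had 56.4, 42.0 and 73.5 FPKM in genistein libraries 1 to 3, 77.4 and 35.5 in the BMP6 libraries, and 71.3, 58.2 and 49.9 in the DMSO libraries. All 3 groups overlapped, and the widest gap was within the BMP6 pair, at 2.18-fold. The changes were -0.08 ± 0.39 for genistein and -0.17 ± 0.44 for BMP6, each against DMSO (limma SE, adjusted p = 0.912 and 0.858). Without BMP6 2 the second of these was 0.38 and without BMP6 1 it was -0.72, so its direction rested on 1 library.

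EGLN1 (ENSG00000135766; hg18 chromosome 1, 229568054 to 229627413) encodes PHD2, the prolyl hydroxylase that sets HIF levels in most cells with normal oxygen. It had 18.9, 16.4 and 14.6 FPKM in the genistein libraries, 12.0 and 12.3 in the BMP6 libraries, and 5.51, 15.8 and 15.3 in the DMSO libraries. Apart from the low DMSO 1, the levels lay within 12.0 to 18.9 FPKM. The changes against DMSO were 0.53 ± 0.45 with genistein and 0.11 ± 0.51 with BMP6 (adjusted p = 0.459 and 0.921), and without DMSO 1 the second was -0.34.

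EGLN3 (ENSG00000129521; hg18 chromosome 14, 33463172 to 33490035) encodes PHD3, a related hydroxylase that is itself a HIF target and rises strongly in hypoxia. The genistein libraries had 2.52, 0 and 2.40 FPKM, the BMP6 libraries 17.7 and 21.4, and the DMSO libraries 0, 11.1 and 8.80. Both BMP6 libraries were above every other library, and the listed zeros were in Genistein 2 and DMSO 1. Against DMSO the change with BMP6 was 2.06 ± 1.09 (adjusted p = 0.334), and with genistein -1.10 ± 0.98 (adjusted p = 0.479). Genistein minus BMP6 was -3.16 ± 1.09 (adjusted p = 0.232). Leaving out DMSO 1 and Genistein 2 together, a choice made after seeing the data, gave -2.57 for genistein minus BMP6 (adjusted p = 0.0413), and 0.91 for BMP6 minus DMSO (adjusted p = 0.289). With failed and isolated zero values set to missing, genistein minus DMSO passed at -2.25 (adjusted p = 0.0353) and genistein minus BMP6 at -3.16 (adjusted p = 0.0241). Isolated zeros were dropped only in groups that reached 5 FPKM, here the zero of DMSO 1 but not that of Genistein 2. This raised the DMSO mean and removed spread within DMSO, so both calls in that fit depend on the rule.

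Of 17 tested genes of the wider list of HIF subunits, oxygen sensing and HIF turnover, 1 was called with genistein, where 12.1% of all tested genes were called. None was called by limma with BMP6 or between the treatments (0.837% and 1.39% of all tested genes). At an unadjusted p under 0.05 there were 3 of 17 with BMP6, beside 2388 of 12661 genes, and 2 of 17 between the treatments, beside 1855. The called gene, CITED2, encodes a HIF-induced protein that competes with HIF for the coactivator p300. CITED2 had 6.52, 14.0 and 6.47 FPKM with genistein, 51.5 and 18.8 with BMP6, and 54.7, 40.1 and 38.2 with DMSO. With genistein it fell by 2.25 ± 0.48 (adjusted p = 0.0247), and the genistein libraries were below all others. The call held in 3 of 8 fits that left out 1 library, and ended without DMSO 1, DMSO 2, DMSO 3, Genistein 1 or Genistein 3 (adjusted p up to 0.098, changes between -2.58 and -2.08).

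EPAS1, which encodes the HIF-2 alpha subunit, averaged 126 ± 26.3 FPKM with genistein (SD, n = 3), 139 ± 66.1 with BMP6 (SD, n = 2) and 60.2 ± 12.3 with DMSO (SD, n = 3). Every treated library was above every DMSO library. The changes against DMSO were 1.05 ± 0.36 with genistein (adjusted p = 0.0949) and 1.12 ± 0.40 with BMP6 (adjusted p = 0.196), neither of which was called. ARNT, the partner subunit, averaged 48.1 ± 7.24 FPKM with genistein, 33.2 ± 1.47 with BMP6 and 48.1 ± 18.7 with DMSO. VHL, which encodes the recognition subunit of the ligase that removes HIF, averaged 58.8 ± 7.87 FPKM with genistein, 48.1 ± 12.0 with BMP6 and 90.4 ± 35.4 with DMSO. HIF1AN, an asparagine hydroxylase that blocks HIF activity, averaged 64.3 ± 15.7 FPKM with genistein, 68.8 ± 8.61 with BMP6 and 66.8 ± 28.0 with DMSO. None of ARNT, VHL and HIF1AN was called in any comparison, and HIF3A and ARNT2 were listed at 0 in all 8 libraries.

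The secreted factors are VEGFA and ADM. VEGFA (ENSG00000112715; hg18 chromosome 6, 43845926 to 43862202) encodes vascular endothelial growth factor A. It had 464, 355 and 390 FPKM in the genistein libraries, 191 and 206 in the BMP6 libraries, and 151, 206 and 193 in the DMSO libraries. Each genistein library was above all 5 others, and the BMP6 values overlapped the DMSO values. The means were 403 ± 55.4 FPKM with genistein (SD, n = 3), 199 ± 10.7 with BMP6 (SD, n = 2) and 183 ± 29.0 with DMSO (SD, n = 3).

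VEGFA rose with genistein by 1.14 ± 0.28 against DMSO (adjusted p = 0.036), and BMP6 minus DMSO was 0.13 ± 0.31 (adjusted p = 0.847). Genistein minus BMP6 was 1.01 ± 0.31 (adjusted p = 0.177). By exact permutation, two-sided, the p was 0.1 for genistein against DMSO and 0.2 for genistein against BMP6, the smallest values that these group sizes allow. In the same test ADM and NDRG1 also had 0.1 for genistein against DMSO. CA9, EGLN1, EGLN3, NDRG1, LOX and P4HA1 had 0.2 for genistein against BMP6. Leaving out 1 library at a time kept the change against DMSO between 1.00 and 1.23, but the adjusted p then ranged up to 0.13 and passed in 2 of 8 fits, those without a BMP6 library. The call thus ended without any 1 of the genistein or DMSO libraries, and it also ended with no trend in the variance (adjusted p = 0.0531).

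ADM (ENSG00000148926; hg18 chromosome 11, 10283219 to 10285518) encodes adrenomedullin, a vessel-relaxing peptide and a sensitive marker of hypoxia in many cells. It had 39.9, 47.4 and 15.0 FPKM with genistein, 11.8 and 55.1 with BMP6, and 52.2, 58.9 and 56.0 with DMSO. All genistein libraries were below all DMSO libraries, and the lowest values were in Genistein 3 and BMP6 1. The changes against DMSO were -0.84 ± 0.62 with genistein and -1.08 ± 0.69 with BMP6 (adjusted p = 0.391 and 0.418). The second rested on BMP6 1, since it was -0.01 without that library and -2.15 without BMP6 2.

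CA9 (ENSG00000107159; hg18 chromosome 9, 35663853 to 35671147) encodes carbonic anhydrase IX, a cell surface enzyme of pH control that is widely used as a tissue marker of hypoxia. It had 6.06, 0 and 5.89 FPKM with genistein, 61.7 and 80.8 with BMP6, and 0, 10.5 and 22.3 with DMSO. Both BMP6 libraries were above every other library. The change with BMP6 against DMSO was 3.47 ± 1.35 (adjusted p = 0.226, unadjusted p = 0.0326), and with genistein -0.82 ± 1.21 (adjusted p = 0.681). Without DMSO 1 and Genistein 2 the change with BMP6 was 2.13 (adjusted p = 0.126), and genistein minus BMP6 was -3.36 (adjusted p = 0.0446), against -4.29 ± 1.35 with all libraries (adjusted p = 0.189). With failed and isolated zero values missing this contrast also passed, at -3.36 (adjusted p = 0.0119). In deposited FPKM, CA9 and EGLN3 ranked the libraries alike, except that DMSO 2 and DMSO 3 changed places. The listed zeros were in the same pair of libraries and BMP6 2 was at the top, where its place above BMP6 1 depends on the scaling.

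NDRG1 and BNIP3 belong to the cell's stress response. NDRG1 (ENSG00000104419; hg18 chromosome 8, 134318596 to 134378680) encodes a cytoplasmic protein induced by hypoxia and by iron chelation. It had 94.4, 70.2 and 95.4 FPKM with genistein, 683 and 173 with BMP6, and 114, 104 and 147 with DMSO. The 3 groups did not overlap, with genistein lowest and BMP6 highest, but BMP6 1 was 3.95 times BMP6 2. BMP6 minus DMSO was 1.50 ± 0.55 (adjusted p = 0.201), genistein minus DMSO was -0.49 ± 0.49 (adjusted p = 0.534), and genistein minus BMP6 was -1.99 ± 0.55 (adjusted p = 0.14). Without BMP6 1 the change with BMP6 against DMSO was 0.52, and without BMP6 2 it was 2.49, so its size rested on the BMP6 library kept. Either fit holds 1 BMP6 library, so no p-value is given for it.

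BNIP3 (ENSG00000176171; hg18 chromosome 10, 133631859 to 133645417) encodes a protein of the outer mitochondrial membrane that directs mitochondria to autophagy. It had 160, 155 and 103 FPKM with genistein, 154 and 327 with BMP6, and 64.8, 168 and 287 with DMSO. The DMSO libraries alone covered nearly the whole range, and all groups overlapped. The changes against DMSO were -0.10 ± 0.56 with genistein and 0.61 ± 0.63 with BMP6 (adjusted p = 0.923 and 0.613). Without BMP6 1 the second was 1.15, and without BMP6 2 it was 0.07.

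LOX and P4HA1 act on collagen. LOX (ENSG00000113083; hg18 chromosome 5, 121429918 to 121441853) encodes lysyl oxidase, which crosslinks collagen and elastin outside the cell. It had 0, 0 and 0.971 FPKM with genistein, 21.9 and 19.4 with BMP6, and 0, 0 and 5.67 with DMSO. It was listed at 0 in 4 of the 6 libraries without BMP6. In deposited FPKM the BMP6 pair lay within 1.13-fold of each other, a gap that depends on the scaling. BMP6 minus DMSO was 3.52 ± 0.87 (adjusted p = 0.106, unadjusted p = 0.00361), and genistein minus BMP6 was -4.11 ± 0.87 (adjusted p = 0.0697, unadjusted p = 0.00144). With a pseudocount of 5 FPKM in place of 1 both passed, at 1.99 (adjusted p = 0.0392) and -2.27 (adjusted p = 0.0177), and the genistein contrast also passed with median-of-ratios scaling, at -4.20 (adjusted p = 0.0444). Genistein minus DMSO was -0.59 ± 0.78 (adjusted p = 0.646). With failed and isolated zero values missing, genistein minus DMSO was -2.41 and genistein minus BMP6 was -4.11. The LOX zeros of the DMSO group were dropped there, while those of the genistein group were kept. Only the DMSO library with 5.67 FPKM stayed in its group, so no p-value is given and no call is read for LOX in that fit.

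P4HA1 (ENSG00000122884; hg18 chromosome 10, 74436981 to 74526630) encodes the catalytic subunit of the prolyl hydroxylase that stabilizes collagen. It had 50.4, 81.9 and 83.9 FPKM with genistein, 504 and 126 with BMP6, and 68.3, 74.2 and 116 with DMSO. As for NDRG1, both BMP6 libraries were highest and BMP6 1 far exceeded BMP6 2, here 4.01-fold. BMP6 minus DMSO was 1.58 ± 0.59 (adjusted p = 0.209). The change was 0.58 without BMP6 1 and 2.57 without BMP6 2, so its size too rested on the BMP6 library kept. Genistein minus DMSO was -0.25 ± 0.52 (adjusted p = 0.778). PDGFRB, the 1 detected fibroblast marker, was also highest with BMP6 (14.3 to 19.5 FPKM), while COL1A1, COL1A2, COL3A1, DCN, LUM, PDGFRA and THY1 were listed at 0 in every library.

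The order of levels also differed by group. With genistein the order by median FPKM was VEGFA, BNIP3, NDRG1, P4HA1, HIF1A, ADM, EGLN1, CA9, EGLN3 and LOX. With BMP6 it was NDRG1, P4HA1, BNIP3, VEGFA, CA9, HIF1A, ADM, LOX, EGLN3 and EGLN1, and with DMSO it was the order given for genistein. Neighbours whose libraries did not overlap were VEGFA and BNIP3, BNIP3 and NDRG1, and EGLN1 and CA9 with genistein, then VEGFA and CA9, and EGLN3 and EGLN1 with BMP6, and ADM and EGLN1 with DMSO. All other neighbours overlapped. Over the 8 libraries, log2(FPKM + 1) of VEGFA was most like that of USP4 (Pearson r = 0.993), GOT1 (0.991) and OSER1 (0.99), and that of HIF1A most like NUP133 (0.988), CDC40 (0.981) and DLD (0.98), as a description of libraries that share group and scaling.

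Promoter sequences are shown for CA9, EGLN3, LOX and P4HA1, 4 of the 5 genes that were highest in both BMP6 libraries, since HIF binds the core letters ACGTG or GCGTG. RefSeq windows of 300 bases (GRCh38.p14), running from 250 bases before the start site, were matched for 8 of the 10 genes. The windows below read 5′ to 3′ along the gene's strand, and capitals mark each match to ACGTG or GCGTG on either strand. The CA9 window is chr9:35673678-35673977 on the plus strand, and the EGLN3 window is chr14:33951025-33951324 on the minus strand. The LOX window is chr5:122078210-122078509, the first of 3 listed for that gene, and the P4HA1 window is chr10:73096817-73097116, both on the minus strand.
CA9: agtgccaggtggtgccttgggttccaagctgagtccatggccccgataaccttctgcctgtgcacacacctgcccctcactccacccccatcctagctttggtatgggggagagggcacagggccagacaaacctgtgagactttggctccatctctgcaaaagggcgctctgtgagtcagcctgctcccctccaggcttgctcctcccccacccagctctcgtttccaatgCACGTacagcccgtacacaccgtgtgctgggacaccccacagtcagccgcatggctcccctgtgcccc
EGLN3: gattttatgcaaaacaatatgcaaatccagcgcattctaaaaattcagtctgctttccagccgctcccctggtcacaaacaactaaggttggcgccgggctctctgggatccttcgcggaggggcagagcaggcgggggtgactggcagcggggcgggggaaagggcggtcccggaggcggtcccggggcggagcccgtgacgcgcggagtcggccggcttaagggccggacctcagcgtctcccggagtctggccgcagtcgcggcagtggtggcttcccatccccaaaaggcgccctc
LOX: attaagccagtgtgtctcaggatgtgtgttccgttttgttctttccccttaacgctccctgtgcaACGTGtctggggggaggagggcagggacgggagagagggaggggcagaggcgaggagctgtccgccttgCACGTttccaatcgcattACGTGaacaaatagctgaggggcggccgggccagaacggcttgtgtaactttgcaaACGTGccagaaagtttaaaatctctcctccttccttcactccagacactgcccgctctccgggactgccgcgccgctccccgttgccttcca
P4HA1: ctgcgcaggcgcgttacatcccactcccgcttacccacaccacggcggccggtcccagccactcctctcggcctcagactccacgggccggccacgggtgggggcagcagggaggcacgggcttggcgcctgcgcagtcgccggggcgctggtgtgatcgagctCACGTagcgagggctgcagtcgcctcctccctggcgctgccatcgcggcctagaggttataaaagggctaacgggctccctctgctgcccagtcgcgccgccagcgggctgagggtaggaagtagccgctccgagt

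Positions are those of the first base of a match, counted from the start site. CA9 had 1 match, at -18, and P4HA1 had 1, at -86. LOX had 4 matches, at -185, -116, -98 and -42, and EGLN3 had none in this window. Of the other members, HIF1A and ADM had 1 GCGTG each, EGLN1 had 1 ACGTG, and BNIP3 had 2 ACGTG and 4 GCGTG, where matches may overlap. In all, 7 of the 8 genes had a match in at least 1 window, where HIF1A had 2 windows and LOX 3. The shares that follow count windows, not genes, so they are not a like measure. Among 35116 RefSeq promoter windows of the same length 48.4% held either motif, 21.4% ACGTG and 36.5% GCGTG. A match is a description of letters and was not tested as a binding site.

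The wider HIF target lists were read in the same fit. Of 40 tested targets outside glycolysis that are reported here, 4 were called higher and 1 lower with genistein, against a background of 6.11% higher and 5.96% lower. DDIT4, an inhibitor of the growth kinase mTOR, averaged 338 ± 14.1 FPKM with genistein, 202 ± 88.2 with BMP6 and 57.9 ± 10.3 with DMSO (SD), and it rose with genistein by 2.54 ± 0.32 (adjusted p = 0.00582). STC2, which encodes the secreted glycoprotein stanniocalcin 2, rose with genistein by 2.76 ± 0.40 (adjusted p = 0.00804). BHLHE40, a repressor of the circadian clock, rose by 2.18 ± 0.39 (adjusted p = 0.0145), and IGFBP1, a liver-secreted binder of insulin-like growth factors, by 1.72 ± 0.41 (adjusted p = 0.0342). For DDIT4, STC2, BHLHE40 and IGFBP1 both BMP6 libraries were also above all DMSO libraries, as for 16.1% of all tested genes. Their changes with BMP6 against DMSO were 1.72, 2.11, 1.51 and 0.77, none of them called. None of the 4 was called for genistein minus BMP6 (0.81, 0.64, 0.66 and 0.95). The genistein calls against DMSO held without any 1 library in 8 of 8 fits for DDIT4 and STC2, in 5 for BHLHE40 and in 2 for IGFBP1. The call of BHLHE40 ended without DMSO 2, Genistein 1 or Genistein 3 (adjusted p up to 0.0672), and that of IGFBP1 without any 1 of the genistein or DMSO libraries (adjusted p up to 0.133). Without DMSO 1 and Genistein 2 together the calls of STC2 (adjusted p = 0.0697), BHLHE40 (0.0702), IGFBP1 (0.166) and CITED2 (0.0791) ended as well.

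PLOD2, a lysyl hydroxylase that prepares collagen for crosslinking, went the other way. It had 27.7, 32.0 and 17.1 FPKM with genistein, 81.5 and 90.3 with BMP6, and 154, 166 and 147 with DMSO. The groups did not overlap, and with genistein PLOD2 fell by 2.60 ± 0.32 against DMSO (adjusted p = 0.00494). Genistein minus BMP6 was -1.75 ± 0.35 (adjusted p = 0.0595). VEGFA and PLOD2, both HIF targets, were thus called in opposite directions with genistein.

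With BMP6, none of these 40 targets outside glycolysis was called by limma, where 0.837% of all tested genes were called. An unadjusted p under 0.05 was seen for 12 of 40, beside 2388 of all 12661 genes. Of the 40, 15 (37.5%) were higher in both BMP6 libraries than in any DMSO library, against 16.1% of all tested genes, and the median change was 0.80, or 0.41 without DMSO 1. Of the 20 glycolytic targets, 11 (55.0%) were separated that way and the median change was 1.35, with 19 above 0 and none below, but 14 above and 5 below without BMP6 2. Only SLC2A3 was called higher among them, where 0.34% of all tested genes were called higher. The median was 1.59 without BMP6 1, 0.83 without BMP6 2 and 0.86 without DMSO 1. With genistein the glycolytic median was 0.14, with 1 of 20 genes called lower, near the 5.96% of all tested genes called lower.

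SLC2A3 encodes the high-affinity glucose transporter GLUT3. It had 12.2, 10.8 and 13.9 FPKM with genistein, 495 and 424 with BMP6, and 89.0, 60.9 and 56.9 with DMSO. The 3 groups were separate, and against DMSO the transcript fell by 2.37 ± 0.30 with genistein (adjusted p = 0.00586) and rose by 2.74 ± 0.34 with BMP6 (adjusted p = 0.0198). Genistein minus BMP6 was -5.12 ± 0.34 (adjusted p = 0.00086). The call of genistein against DMSO held in 8 of 8 fits without 1 library. Comparisons with BMP6 are read only in fits that kept both BMP6 libraries. There the call of genistein against BMP6 always held, and that of BMP6 against DMSO ended without DMSO 2, DMSO 3 or Genistein 3. The call of BMP6 against DMSO also ended with only the libraries of the 2 groups compared (adjusted p = 0.106) and with the replicate block (adjusted p = 0.141). Leaving out Genistein 3 and BMP6 1 together ended the call of genistein against BMP6 too (adjusted p = 0.0507). Reads of SLC2A3 may be shared with its near-identical neighbour SLC2A14, so its level is uncertain. PFKFB4, which makes an activator of glycolysis, was the other glycolytic gene called lower with genistein than with BMP6. Of all tested genes 0.75% were called lower in this comparison. PFKFB4 had 5.59 ± 1.35 FPKM with genistein and 64.2 ± 2.76 with BMP6 (SD), a change of -3.33 ± 0.62 (adjusted p = 0.0475). This call held in 2 of 8 fits without 1 library, those without DMSO 1 or DMSO 3 (adjusted p up to 0.15 in the others). It also ended with a pseudocount of 0.5 FPKM (adjusted p = 0.0543), with no filter on low values (0.054) and with only the libraries of the 2 groups compared (0.0583).

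**Figure D3:**
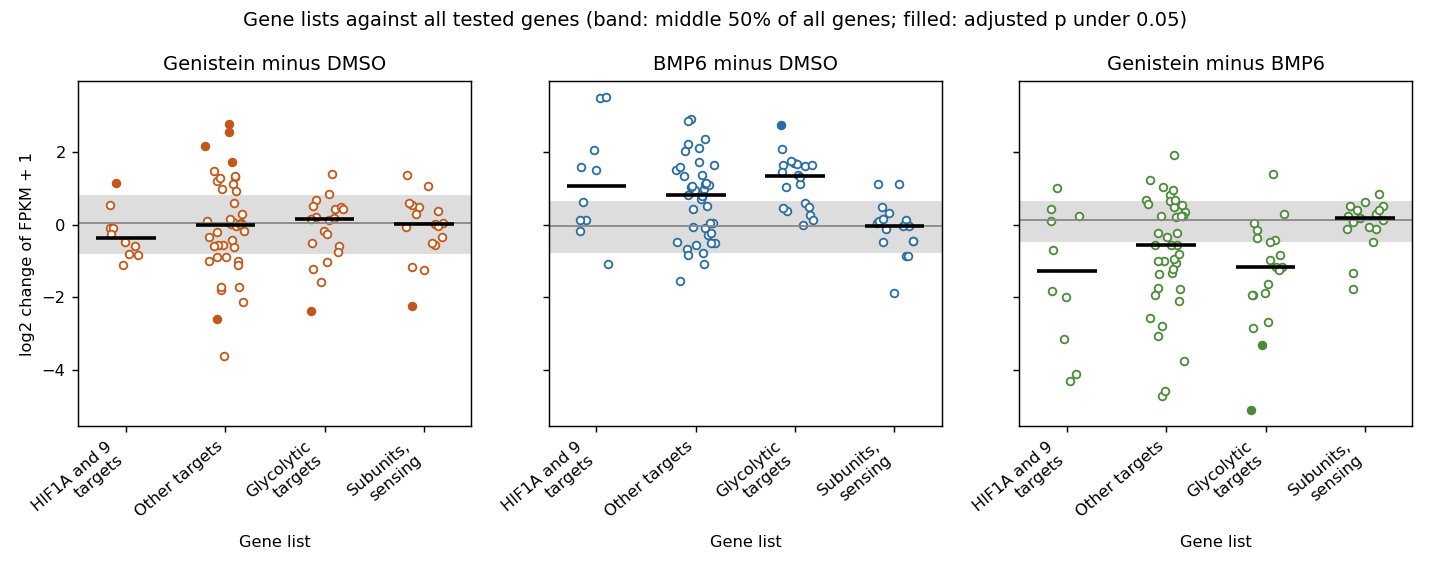
Change of every tested gene of the 10 members and of the other HIF lists on the log2(FPKM + 1) scale, by comparison, with list medians as black lines, called genes filled, and the middle 50% of all tested genes as a grey band. The glycolytic targets lie at or above 0 for BMP6 minus DMSO (median 1.35) and on both sides of 0 for genistein minus DMSO (median 0.14).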

How the data were processed

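PolyA RNA of 8 HepG2 libraries was measured by RNA-seq on a Genome Analyzer II, per the labels' protocols. The authors deposited 1 FPKM value per Ensembl gene and library, and the submitters' processing notes name TopHat 1.1.0, Bowtie, Cufflinks 1.0.3, Cuffdiff and hg18, without settings. The sources used here do not say how the FPKM values were scaled between libraries. Totals ranged from 1704599 to 3105197 FPKM per library. The 1000 lowest values above 0 showed no steps of whole reads, so depth is unknown, no count test was possible, and neither intervals nor detection floors were computed. Groups and replicate numbers come from the sample titles.

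Symbols were matched to 19069 of 20897 gene IDs. A gene was tested where 2 or more libraries had 1 FPKM or more (12661 genes, all 10 members among them). All 8 libraries entered 1 limma fit (version 3.58.1, R 4.3.3) on log2(FPKM + 1) with an intensity trend (degrees of freedom: 5 residual, 3.22 prior). Tests were two-sided, and p-values were adjusted by Benjamini-Hochberg over the 12661 genes. The script was tested on simulated data. All 10 members were also put to an exact permutation test (SciPy 1.17.1, Python 3.11.15). Alternatives were other pseudocounts, filters, scaling, variance trend, libraries in the fit, treatment of zeros, a replicate block and leaving out libraries. Gene coordinates come from the files (hg18, counted from 1), and no hg18 annotation was used. In the files' spans none of the 10 genes overlaps another listed gene.

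The members and lists were chosen with earlier results of these data known. Beyond the members, genes of the HIF lists past the threshold and the main pathway parts were named by rule. EGLN2 is not analysed here. A gene of the lists is not reported here, and the list counts leave it out.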

Additional observations from a re-analysis of the deposited data

How the results depend on the processing

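Counts given in threes follow the order genistein minus DMSO, BMP6 minus DMSO and genistein minus BMP6. The calls over all tested genes (1527, 106 and 176) ranged over 229 to 2671, 5 to 1999 and 42 to 629 when 1 library was left out. Calls among the 10 genes then ranged from 0 to 1 higher for genistein minus DMSO. Fits without BMP6 1 or BMP6 2 left 1 BMP6 library, so member calls against or for BMP6 are given only where both stayed. There no member was called for BMP6 minus DMSO, and for genistein minus BMP6 only LOX was, lower, without DMSO 3. With only the libraries of the 2 groups compared the calls over all genes were 2690, 17 and 37. With failed and isolated zero values missing they were 2394, 662 and 649. There EGLN3 was called lower with genistein than with DMSO, and CA9 and EGLN3 lower than with BMP6. For EGLN3 the zero of DMSO 1 was dropped and that of Genistein 2 kept. No call is read for LOX, where only DMSO 3 stayed in the DMSO group. The replicate block gave 414, 4 and 7 calls and no member called higher (0). Deviations from the group means correlated from -0.247 to 0.286 between same-numbered libraries, and at 0.594 between Genistein 3 and BMP6 1. Such deviations cancel within a group, so they cannot tell whether same-numbered libraries share more than a number. With median-of-ratios scaling, BMP6 minus DMSO had 382 calls and genistein minus BMP6 417, with 1 member lower; this scaling moved the median of all genes by -0.10, 0.06 and -0.16. A pseudocount of 5 gave 184 calls for BMP6 minus DMSO with 1 member higher, and 1 member lower for genistein minus BMP6. A mean of at least 5 FPKM gave 38 and no variance trend 173 calls for BMP6 minus DMSO, and without the trend 0 members were higher with genistein than with DMSO. Leaving out 2 libraries was added after seeing the data. Without DMSO 1 and Genistein 2 there were 424 calls for genistein minus DMSO (0 members higher) and 164 for BMP6 minus DMSO, and 2 members were lower for genistein minus BMP6. Without Genistein 3 and BMP6 1 there were 0 members higher with genistein than with DMSO, and 2 calls over all genes in each comparison with BMP6.

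The changes that reversed were not called in the fit of all 8 libraries. Median-of-ratios scaling turned ARNT (-0.066) and HIF1AN (-0.10) for genistein minus DMSO and HIF1A (-0.11) for genistein minus BMP6. Without DMSO 1 and Genistein 2, HIF1A (0.25) turned for genistein minus DMSO, VEGFA (-0.0062) and EGLN1 (-0.34) for BMP6 minus DMSO, ADM (-0.068) and EPAS1 (0.079) for genistein minus BMP6, and HIF1AN in all 3 (-0.17, -0.26 and 0.088). Without Genistein 3 and BMP6 1, BNIP3 (0.10), ARNT (-0.0032) and HIF1AN (-0.044) turned for genistein minus DMSO, and ADM (-0.33) and EPAS1 (0.28) for genistein minus BMP6. With 1 library left out, genistein minus DMSO ranged over -0.28 to 0.12 for HIF1A, -0.68 to 0.38 for BNIP3, -2.17 to 0.11 for CA9, -1.04 to 0.33 for LOX, -0.14 to 0.35 for ARNT and -0.38 to 0.28 for HIF1AN. BMP6 minus DMSO ranged over -0.72 to 0.38 for HIF1A, -0.0062 to 0.22 for VEGFA, -0.34 to 0.35 for EGLN1 and -0.26 to 0.40 for HIF1AN. Genistein minus BMP6 ranged over -0.46 to 0.64 for HIF1A, -0.83 to 1.30 for ADM, -0.57 to 0.43 for EPAS1 and -0.27 to 0.088 for HIF1AN. The causes were not tested. Of the fits of single genes with 1 library left out, 382 kept direction and call, 30 lost the call, 10 gained it and 26 reversed.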

Other observations

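HIF targets of iron handling or red cell formation were not described above, and the 4 given here were chosen after their values were seen. TF, the gene of transferrin, is on the same list and did not share their pattern. Its BMP6 and DMSO libraries overlapped, and BMP6 minus DMSO was 0.71 ± 0.66 (limma, adjusted p = 0.573). TFRC, the transferrin receptor, had 144, 148 and 291 FPKM with genistein, 922 and 158 with BMP6, and 57.2, 67.4 and 102 with DMSO. CP, which encodes the ferroxidase ceruloplasmin, had 20.7, 23.6 and 44.8 FPKM with genistein, 520 and 113 with BMP6, and 24.3, 35.3 and 40.4 with DMSO. For both genes the BMP6 libraries were above all DMSO libraries, as for 16.1% of all tested genes, and BMP6 1 was far above BMP6 2. BMP6 minus DMSO was 2.36 ± 0.71 for TFRC (limma, adjusted p = 0.151) and 2.86 ± 0.65 for CP (adjusted p = 0.0873), so neither was called. Without BMP6 1 the values were 1.09 for TFRC and 1.77 for CP, and without BMP6 2 they were 3.63 for TFRC and 3.96 for CP. Each of these fits holds 1 BMP6 library, so only the changes are given.

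EPO, the gene of erythropoietin, had 3.40, 0 and 1.22 FPKM with genistein, 15.4 and 50.1 with BMP6, and 0, 23.5 and 31.9 with DMSO. The listed zeros of EPO fell in the same pair of libraries as those of CA9 and EGLN3. HMOX1, which encodes the haem-degrading enzyme haem oxygenase 1, had 38.2, 21.4 and 20.5 FPKM with genistein, 82.6 and 305 with BMP6, and 20.5, 53.1 and 127 with DMSO. Neither gene was called for BMP6 minus DMSO (adjusted p = 0.555 for EPO and 0.315 for HMOX1). Both were lower in every genistein library than in either BMP6 library, as were 12.6% of all tested genes. In TFRC, CP, NDRG1 and P4HA1 the higher BMP6 value was in BMP6 1, and in EPO, HMOX1, ADM and BNIP3 it was in BMP6 2. This order is that of deposited FPKM, whose total was highest in BMP6 2 and lowest in BMP6 1. The part of scaling in it was not tested.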
